A study of Mus musculus with 17 samples.

Results

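The 10 genes described here belong to the responses to heat and to cold, and were read in testes and forebrain of newborn mice. They were taken as the rows whose Ensembl identifier belongs, in the GENCODE annotation of the mouse, to *Cirbp*, *Rbm3*, *Hspa1a*, *Hspa1b*, *Hsph1*, *Dnajb1*, *Hsp90aa1*, *Hspa8*, *Hspb1* or *Hspe1*. Each of the 10 had 1 row among the 55359 of the table, and each passed the filter on low counts in both organs.

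RNA-seq was performed on organs of male *Ocn* GK mice at postnatal day 1. This 129/SvEv strain, a product of gene targeting in embryonic stem cells, lacks osteocalcin, a hormone made by bone, when both alleles are mutant. Testes came from 2 WT, 3 Ocn+/- and 3 Ocn-/- pups, and forebrain, which the sample labels name hippocampus, from 3 pups of each genotype. WT pups had WT mothers, whereas Ocn+/- and Ocn-/- pups had Ocn-/- mothers, so that pup genotype, maternal genotype and litter cannot be told apart in any comparison with WT. The p-values measure the spread between these pups only.

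Heat-shock proteins are chaperones. HSP40 co-chaperones deliver unfolded proteins to HSP70, and HSP90 acts on many clients later in folding. Heat and other insults to protein folding activate heat shock factor 1, which binds repeats of the unit nGAAn in promoters and raises some of these genes from very low levels. *Cirbp* and *Rbm3* encode RNA-binding proteins that rise on mild cooling, the opposite stimulus, and *Rbm3* is abundant in the developing brain.

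Promoters are shown for 5 members, those of *Hspa1a*, *Hspa1b* and *Hspb1*, which differed most between the organs, and of the cold-inducible *Cirbp*, with that of *Hspe1* for its joined units. Each sequence is the 250 bases before the start of the canonical transcript, in GRCm39, on the strand of the gene and 5′ to 3′. Capitals mark GAANNTTC or TTCNNGAA, in which adjacent units of a heat shock element have opposite orientations, and TCCCCGCC, the mild cold response element, on either strand.
Hspa1a (chr17:35191133-35191382, minus strand): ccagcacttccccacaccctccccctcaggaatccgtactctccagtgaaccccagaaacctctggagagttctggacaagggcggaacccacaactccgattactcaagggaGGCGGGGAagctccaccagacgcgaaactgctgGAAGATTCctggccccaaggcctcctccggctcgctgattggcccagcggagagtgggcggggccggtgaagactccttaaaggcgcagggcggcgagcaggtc
Hspa1b (chr17:35178215-35178464, minus strand): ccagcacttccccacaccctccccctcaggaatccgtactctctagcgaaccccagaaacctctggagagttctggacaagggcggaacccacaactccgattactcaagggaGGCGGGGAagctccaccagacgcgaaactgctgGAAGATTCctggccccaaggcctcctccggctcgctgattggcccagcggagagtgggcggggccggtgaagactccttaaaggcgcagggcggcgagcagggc
Hspb1 (chr5:135916510-135916759, plus strand): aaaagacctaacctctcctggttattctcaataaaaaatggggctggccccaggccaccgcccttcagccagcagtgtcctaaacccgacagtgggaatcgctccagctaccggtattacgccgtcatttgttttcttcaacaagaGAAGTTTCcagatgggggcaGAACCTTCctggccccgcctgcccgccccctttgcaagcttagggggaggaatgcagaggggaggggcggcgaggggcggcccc
Hspe1 (chr1:55127041-55127290, plus strand): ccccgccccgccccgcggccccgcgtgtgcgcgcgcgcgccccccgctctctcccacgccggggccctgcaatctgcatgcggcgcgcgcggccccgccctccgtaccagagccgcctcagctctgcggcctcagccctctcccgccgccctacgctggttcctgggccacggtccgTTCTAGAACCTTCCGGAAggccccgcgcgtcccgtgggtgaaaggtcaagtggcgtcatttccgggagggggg
Cirbp (chr10:80003362-80003611, plus strand): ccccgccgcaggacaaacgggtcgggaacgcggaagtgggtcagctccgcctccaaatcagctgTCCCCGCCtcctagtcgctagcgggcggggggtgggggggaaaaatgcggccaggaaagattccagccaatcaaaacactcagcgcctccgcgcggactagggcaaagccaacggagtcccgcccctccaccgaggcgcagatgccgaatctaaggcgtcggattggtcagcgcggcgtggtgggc

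An adjacent pair of units was found before 5 of the 10 members, namely *Hspa1a*, *Hspa1b*, *Hsph1*, *Hspb1* and *Hspe1*, and before 12.3% of the 21757 protein-coding genes with a window of the same length. GAANNTTC was in 6.33% of all windows, TTCNNGAA in 6.79% and TCCCCGCC in 4.79%. Joined pairs, which overlap by 3 bases, were in 0.349% of all windows and, among the members, in that of *Hspe1*. The windows of *Hspa1a* and *Hspa1b* were identical at 247 of 250 bases (98.8%), and each held GAANNTTC with its first base 104 bases before the start. *Hspb1* held it at 104 and at 84 bases. TCCCCGCC was matched 186 bases before the start of *Cirbp* and, on the opposite strand, 137 bases before that of *Hspa1a* and *Hspa1b*. These are matches of letters, and no binding was measured. Other annotated transcripts of *Cirbp*, *Hspe1*, *Hsp90aa1*, *Hspa8*, *Hsph1* and *Dnajb1* begin upstream of the start used here, and their promoters were not searched.

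How far the counts belong to each member depends on its copies in the genome. Of the stretches of 50 bases in the canonical transcript, 0% of *Hsph1* and 0.373% of *Dnajb1* also occur in a transcript of another gene. For *Rbm3* this share was 20.6%, and for *Cirbp* it was 23.2%, all of it in the antisense *Gm67261*. The intronless *Hspa1a* and *Hspa1b* are near-identical, with 58.8% of the stretches of *Hspa1a* found in *Hspa1b* and 62.3% of those of *Hspa1b* in *Hspa1a*, so the level of each alone is uncertain. Pseudogenes and other genes held 54.3% of the stretches of *Hsp90aa1*, 75.1% of *Hspa8*, 59.5% of *Hspb1* and 44.8% of *Hspe1*. The authors' counting divides such reads among the copies, and the strandedness of the libraries is not given in the sources used here. Of the genes in the table that overlap members on the other strand, those over *Rbm3*, *Hspa1a* and *Hsph1* held at most 7 counts per library, whereas *Hspd1*, which overlaps *Hspe1* by 143 exonic bases, held 1337 to 3708.

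Libraries held 7302401 to 8289015 counts in testes and 6518151 to 14621584 in forebrain. The forebrain library WT 3 held the fewest, and 8.50% of its counts came from the ribosomal RNA gene *Rn18s*, against at most 0.805% elsewhere. *Bglap* had 0 to 5 counts per library and *Bglap2* 0 counts, which allows up to 3 counts, so the osteocalcin genes could not check the genotypes. Sertoli and fetal Leydig markers were present in testes, and neuronal and forebrain markers in forebrain. Of the germ cell markers, *Dppa3* had 0 to 7 counts per testis. Summed levels of 4 endothelial genes, all detected, in CPM (counts scaled to a common library total), ran from 449 to 461 in WT and from 277 to 340 in mutant testes, and those of 5 fetal Leydig cell genes from 1440 to 1517 and from 615 to 1068. With the mutant genotypes averaged against WT, log2 changes of the Leydig genes ran from -1.73 for *Star* to 0.18 for *Hsd3b1*. Their edgeR adjusted p ran from 0.0501 to 0.384. The sum of 7 erythroid genes was 6088 and 2315 in the WT testes, 771 to 3473 in Ocn+/- and 1153 to 2237 in Ocn-/- testes. The part of these genes in the results on testes was not tested, and in whole organs fewer cells of a type and less RNA per cell cannot be told apart.

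To see how the members differ between the organs, all 17 libraries were fitted together. The sample labels do not say whether testes and forebrain came from the same pups. The joint fit held no term for the pup, so its p-values take the libraries as independent. A gene was called where the adjusted p of the quasi-likelihood test in edgeR was below 0.05. Between forebrain and testes 9 of the 10 members were called, and 84.4% of all genes tested were. The count is thus close to that of all genes, and the members are described by the size of their difference. CPM in the next 3 paragraphs are on the scale of this joint fit. Scaling by library size alone moved the median of all genes by -0.32 on the log2 scale and upper quartile normalization moved it by -0.15.

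The largest differences were those of *Hspb1*, *Hspa1b*, *Hspa1a* and *Hsph1*. *Hspb1*, which encodes the small heat-shock protein HSP25 (ENSMUSG00000004951.11, chromosome 5, 135916760 to 135918417), had 38.5, 65.9 and 87.6 CPM as the lowest, median and highest of 8 testes, and 0.533, 1.22 and 2.18 CPM over 9 forebrains. Its log2 difference, forebrain against testes, was -5.49 (SE 0.15, edgeR adjusted p = 1.22e-20). *Hspa1b*, for an inducible HSP70 (ENSMUSG00000090877.4, chromosome 17, 35175412 to 35178214), had 24.6, 36.2 and 59.1 CPM in testes and 0.837, 1.33 and 3.38 CPM in forebrain. The difference was -4.59 (SE 0.16, edgeR adjusted p = 1.88e-18). *Hspa1a*, its near-identical neighbor (ENSMUSG00000091971.4, chromosome 17, 35188166 to 35191132), had 17.9, 22.1 and 36.3 CPM in testes and 1.55, 2.36 and 3.77 CPM in forebrain, a difference of -3.34 (SE 0.15, edgeR adjusted p = 8.61e-17). For none of these genes did the organs overlap. *Hsph1*, the HSP110 that acts as nucleotide exchange factor of HSP70 (ENSMUSG00000029657.16, chromosome 5, 149537636 to 149560156), went the other way, with 21.5, 37.9 and 48.1 CPM in testes and 154, 171 and 187 CPM in forebrain, a difference of 2.27 (SE 0.11, edgeR adjusted p = 5.47e-13).

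The most abundant chaperones were higher in forebrain. *Hsp90aa1*, the stress-responsive HSP90 (ENSMUSG00000021270.14, chromosome 12, 110656842 to 110669166), differed by 0.87 (SE 0.05, edgeR adjusted p = 1.11e-13), and *Hspa8*, the constitutive HSC70 (ENSMUSG00000015656.18, chromosome 9, 40711630 to 40731039), by 0.72 (SE 0.06, edgeR adjusted p = 2.29e-11). *Hspe1*, the HSP10 partner of the mitochondrial chaperonin (ENSMUSG00000073676.5, chromosome 1, 55127260 to 55130476), was lower in forebrain by -0.66 (SE 0.08, edgeR adjusted p = 5.72e-08). *Cirbp* (ENSMUSG00000045193.14, chromosome 10, 79997069 to 80008626) differed by 0.52 (SE 0.11, edgeR adjusted p = 0.000326) and *Dnajb1*, an HSP40 (ENSMUSG00000005483.11, chromosome 8, 84334811 to 84339820), by 0.33 (SE 0.07, edgeR adjusted p = 0.000229). With library size alone neither was called any longer, with 0.21 for *Cirbp* (edgeR adjusted p = 0.0623) and 0.02 for *Dnajb1* (edgeR adjusted p = 0.846). *Rbm3* (ENSMUSG00000031167.17, chromosome X, 8004213 to 8012119) was not called (-0.06, SE 0.06, edgeR adjusted p = 0.35), but it was with upper quartile normalization (-0.21, edgeR adjusted p = 0.00462) and with library size alone (-0.38, edgeR adjusted p = 2.99e-06).

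Levels of different members were compared as the median over the libraries of an organ, per kilobase of the union of their exons. In testes *Hsp90aa1* had the highest level with 131 CPM per kilobase, followed by *Hspa8* with 98.5, *Hspb1* with 63.2, *Hspe1* with 47.2, *Rbm3* with 39.8 and *Cirbp* with 29.0. *Hspa1b* at 12.9 and *Dnajb1* at 12.6 CPM per kilobase were close, *Hspa1a* had 7.46 and *Hsph1* 3.41. In forebrain *Hsp90aa1* with 251 and *Hspa8* with 166 CPM per kilobase again led, and *Cirbp* with 45.7, *Rbm3* with 35.0 and *Hspe1* with 30.8 came next. *Dnajb1* had 16.3 and *Hsph1* 15.4 CPM per kilobase, and *Hspb1*, *Hspa1a* and *Hspa1b* came last with 1.17, 0.795 and 0.476. The order rests on the length used. With the length of the longest transcript *Cirbp*, at 69.0 CPM per kilobase in testes, came before *Hspb1* at 63.3. With this length *Hspa8* led in both organs, at 189 CPM per kilobase in testes and 319 in forebrain.

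In testes the genotypes were compared to ask how these genes differ at birth where osteocalcin is reduced or absent. Against WT, the cold-inducible *Rbm3* was higher in mutant testes, and the HSP70 genes *Hspa1a* and *Hspa1b* and the HSP90 gene *Hsp90aa1* were lower. These 4 of 10 members were called when the average of the mutant genotypes was set against WT, where 9.94% of all genes tested were. In that contrast 1 member was higher, against 4.51% of all genes, and 3 were lower, against 5.43%. The members were chosen with earlier results of these data known, so such counts are descriptions. Of all genes called there 45.4% were higher, and 65.5% with library size alone. In Ocn+/- testes 3 members were called (*Rbm3*, *Hspa1b* and *Hsp90aa1*; 8.25% of all genes), and in Ocn-/- testes 3 (*Rbm3*, *Hspa1a* and *Hspa1b*; 5.64%). The median log2 change of the 10 members was -0.11 (-0.06 without WT 1 and -0.14 without WT 2) and that of all genes tested -0.00. CPM from here on are on the scale of the organ's own fit, and the plot of testis levels shows every library.

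**Figure D1:**
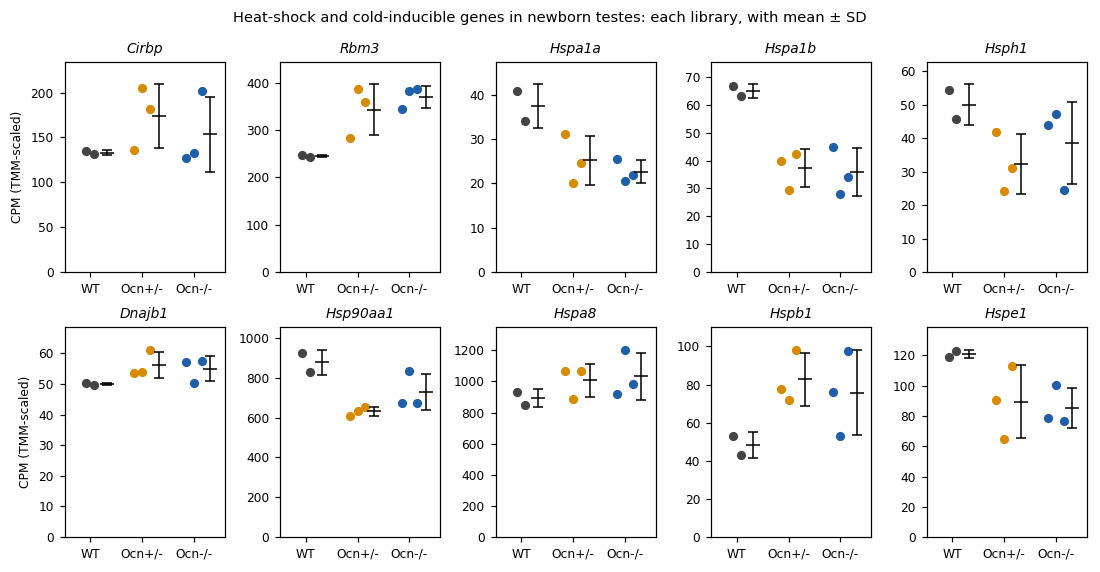
Level of each member in newborn testes, in CPM with TMM scaling on a linear axis from 0. Points are libraries (2 WT, 3 Ocn+/- and 3 Ocn-/-), and the bar beside them is the mean ± SD of the genotype. Both WT testes lie below the 6 mutant testes for Rbm3 and above them for Hspa1a, Hspa1b and Hspe1, while Cirbp and Hsph1 spread widely among testes of the same mutant genotype and overlap WT.

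*Rbm3* had 248 and 244 CPM in the WT testes. The Ocn+/- testes had 284, 387 and 360 CPM and the Ocn-/- testes 344, 382 and 387 CPM. All 6 mutant testes thus lay above both WT testes, the Ocn+/- testis 1 nearest to them. The means were 246 ± 2.81 (SD, n = 2), 344 ± 53.1 (SD, n = 3) and 371 ± 23.2 CPM (SD, n = 3). The log2 change was 0.48 in Ocn+/- (SE 0.14, edgeR adjusted p = 0.0395), 0.60 in Ocn-/- (SE 0.14, edgeR adjusted p = 0.0189) and 0.54 in the mutant mean (SE 0.12, edgeR adjusted p = 0.0141). The Ocn+/- call was lost without the Ocn+/- testis 2 (0.40) or 3 (0.45), and with the replicate number as a block.

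*Cirbp*, the other cold-inducible member, was not called. It had 135 and 131 CPM in WT, 135, 205 and 182 CPM in Ocn+/- and 127, 132 and 201 CPM in Ocn-/- testes. The mutants overlapped WT, and 3 of them, the Ocn+/- testes 2 and 3 and the Ocn-/- testis 3, stood apart at 182 to 205 CPM. Its log2 change was 0.39 in Ocn+/- (SE 0.21, edgeR adjusted p = 0.277) and 0.21 in Ocn-/- testes (SE 0.21, edgeR adjusted p = 0.605), and the latter was -0.04 without the Ocn-/- testis 3.

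Among the inducible HSP70 genes, *Hspa1b* had 66.6 and 63.1 CPM in WT testes. It had 40.0, 29.5 and 42.5 CPM in Ocn+/- and 45.05, 28.0 and 34.1 CPM in Ocn-/- testes, all below WT. The log2 change was -0.80 in Ocn+/- (SE 0.19, edgeR adjusted p = 0.0198), -0.86 in Ocn-/- (SE 0.19, edgeR adjusted p = 0.0166) and -0.83 in the mutant mean (SE 0.17, edgeR adjusted p = 0.00665). The Ocn+/- call was lost without the Ocn+/- testis 1 (-0.85). *Hspa1a* had 40.9 and 34.1 CPM in WT, 31.1, 20.1 and 24.6 CPM in Ocn+/- and 25.5, 20.5 and 21.9 CPM in Ocn-/- testes. Again no mutant testis reached WT. Its log2 change was -0.73 in Ocn-/- (SE 0.19, edgeR adjusted p = 0.0359) and -0.65 in the mutant mean (SE 0.17, edgeR adjusted p = 0.0240), and in Ocn+/- testes it was -0.57 (SE 0.19, edgeR adjusted p = 0.0718). The Ocn-/- call was lost without the Ocn-/- testis 1 (-0.80), 2 (-0.66) or 3 (-0.70), without the Ocn+/- testis 3 (-0.73) and with library size alone (-0.65). Since reads can be divided wrongly between the genes, their counts were also added up. Together *Hspa1a* and *Hspa1b* changed by -0.71 in Ocn+/- (edgeR adjusted p = 0.0196), by -0.81 in Ocn-/- (edgeR adjusted p = 0.0121) and by -0.76 in the mutant mean (edgeR adjusted p = 0.00546).

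*Hsp90aa1* had 923 and 831 CPM in WT testes. It had 610, 633 and 652 CPM in Ocn+/- testes, all below WT, and 676, 835 and 676 CPM in Ocn-/- testes, of which the testis 2 lay between the WT testes. The genotypes thus overlapped only through this testis. The log2 change was -0.47 in Ocn+/- (SE 0.12, edgeR adjusted p = 0.0311), -0.27 in Ocn-/- (SE 0.13, edgeR adjusted p = 0.214) and -0.37 in the mutant mean (SE 0.11, edgeR adjusted p = 0.0440). This was the least stable of the calls. Of 16 alternatives 8 kept the call in the mutant mean, which was lost with library size alone (-0.29), without either WT testis, and without the Ocn-/- testis 1 (-0.33) or 3 (-0.34) or the Ocn+/- testis 1 (-0.35) or 3 (-0.38). The Ocn+/- call was lost without the Ocn+/- testis 1 (-0.44) or 3 (-0.50). With the replicate number as a block, the calls in the mutant mean and in Ocn+/- were both lost.

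The testes calls rest on 2 WT pups. With either left out, the other is assumed to vary like the mutant testes, and 0 of the 10 members were called in any comparison with WT. In the mutant mean, the share of all genes called then fell to 1.67% without WT 1 and to 0.732% without WT 2. The sizes moved less: *Rbm3* changed by 0.56 without WT 1 and by 0.55 without WT 2, *Hspa1b* by -0.78 and -0.85, *Hspa1a* by -0.50 and -0.76, and *Hsp90aa1* by -0.29 and -0.43.

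The small heat-shock protein gene *Hspb1* and the chaperonin partner *Hspe1* were not called in testes. *Hspb1* had 53.1 and 43.3 CPM in WT, 77.7, 71.9 and 98.3 CPM in Ocn+/- and 76.2, 53.1 and 97.6 CPM in Ocn-/- testes. All mutants were above WT, the Ocn-/- testis 2 only just. The log2 change was 0.78 in Ocn+/- (SE 0.23, edgeR adjusted p = 0.0626), 0.65 in Ocn-/- (SE 0.23, edgeR adjusted p = 0.124) and 0.71 in the mutant mean (SE 0.21, edgeR adjusted p = 0.0569). In 8 of 16 alternatives the mutant mean was called, DESeq2 among them (adjusted p = 0.00494). Leaving out the Ocn-/- testis 2 (0.81, edgeR adjusted p = 0.00474) or 3 (0.60, edgeR adjusted p = 0.0309) also made this call, and either brought a call in Ocn+/- testes at a change of 0.78. Without the Ocn-/- testis 2 *Hspb1* was called in Ocn-/- testes as well (0.85, edgeR adjusted p = 0.0121). With 1 library left out in turn, its change in Ocn-/- testes ran from 0.43 to 0.85. *Hspe1* had 119 and 123 CPM in WT, 90.9, 64.7 and 113 CPM in Ocn+/- and 78.6, 101 and 76.6 CPM in Ocn-/- testes. No mutant reached WT, and the mutant mean changed by -0.47 (SE 0.17, edgeR adjusted p = 0.0983). It was called without the Ocn+/- testis 3 (-0.57, edgeR adjusted p = 0.0312), and the Ocn-/- change was called without the Ocn+/- testis 2 (-0.49, edgeR adjusted p = 0.0419).

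The co-chaperones *Hsph1* and *Dnajb1* and the constitutive *Hspa8* were not called. *Hsph1* had 54.3 and 45.8 CPM in WT, 41.7, 24.1 and 31.1 CPM in Ocn+/- and 44.0, 47.2 and 24.6 CPM in Ocn-/- testes, with overlap. Its mutant mean changed by -0.50 (SE 0.25, edgeR adjusted p = 0.219), and in Ocn+/- testes it was called without the Ocn-/- testis 3 (-0.63, edgeR adjusted p = 0.0377). *Dnajb1* had 50.1 and 49.7 CPM in WT and 50.3 to 61.2 CPM in the mutants, with a change of 0.16 (SE 0.12, edgeR adjusted p = 0.437). The mutants lay above WT without overlap, the Ocn-/- testis 2 by little. *Hspa8* had 935 and 851 CPM in WT and 885 to 1205 CPM in the mutants, with overlap and a change of 0.19 (SE 0.13, edgeR adjusted p = 0.34). All mutant testes lay on the same side of WT for 6 members, 3 higher and 3 lower, and 26% of all genes tested showed such an order.

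The mutant genotypes were not told apart in testes. Between Ocn-/- and Ocn+/- testes 0 of 10 members were called in edgeR's test, 0 had an unadjusted p under 0.05, and 0% of all genes were called. DESeq2 also called 0 members, and 76 genes in all. The changes ran from -0.18 (SE 0.19) for *Cirbp* to 0.26 (SE 0.26) for *Hsph1*. With 1 library left out in turn, that of *Cirbp* ran from -0.43 to -0.04 and that of *Hsph1* from 0.09 to 0.50.

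**Figure D2:**
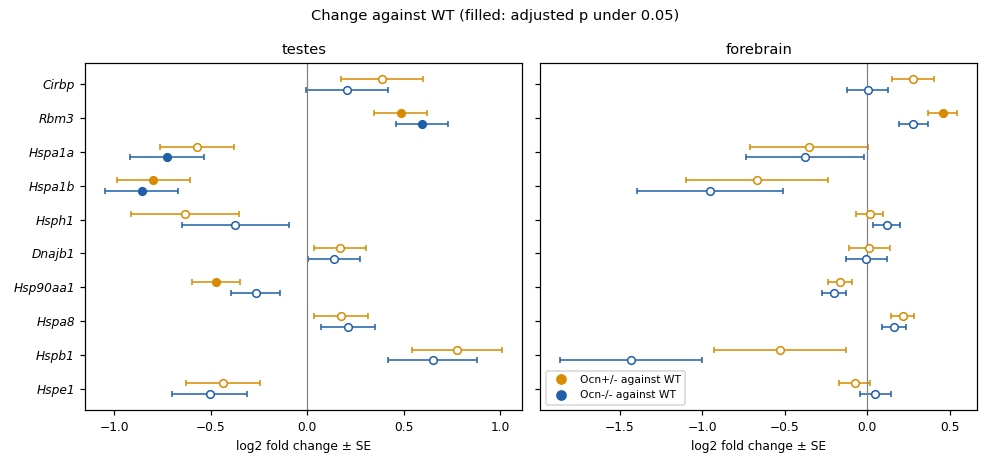
Log2 fold change of each member in Ocn+/- (orange) and Ocn-/- (blue) against WT, for testes (left) and forebrain (right), on axes with different ranges. Bars are ± SE of edgeR's fit and filled points have an adjusted p under 0.05. Rbm3 lies to the right of 0 in both organs, at 0.48 and 0.60 in testes and 0.46 and 0.28 in forebrain, and Hspb1 lies on opposite sides.

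Pairs of members were also compared across the testes. *Cirbp* and *Hsph1* stood in mirror image: the 3 testes at 182 to 205 CPM of *Cirbp* had 24.1 to 31.1 CPM of *Hsph1*, and the other 5, WT included, had 127 to 135 CPM of *Cirbp* and 41.7 to 54.3 CPM of *Hsph1*. The testes fall into separate clusters here, so the correlation of this pair, computed with those of all others, is not given. The high *Cirbp* cluster held testes of both mutant genotypes. Over the 6 mutant testes, log2 CPM of *Rbm3* and *Hspa1a* had a Pearson r of -0.96 (exact permutation p = 0.00417, adjusted p = 0.125) and a Spearman rho of -0.94 (exact permutation p = 0.0167, adjusted p = 0.25), and r was -0.89 without the Ocn+/- testis 1 and the Ocn-/- testis 1. For *Dnajb1* and *Hspb1* r was 0.91 (exact permutation p = 0.0167, adjusted p = 0.214) and rho 0.83 (exact permutation p = 0.0583, adjusted p = 0.477), and r was 0.68 without the Ocn+/- testis 3 and the Ocn-/- testis 2. All 90 pairs in both organs were computed over the 6 mutant libraries, and 0 had an adjusted p under 0.05, so these values are descriptions. The libraries share normalization, and its part in r was not tested.

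**Figure D3:**
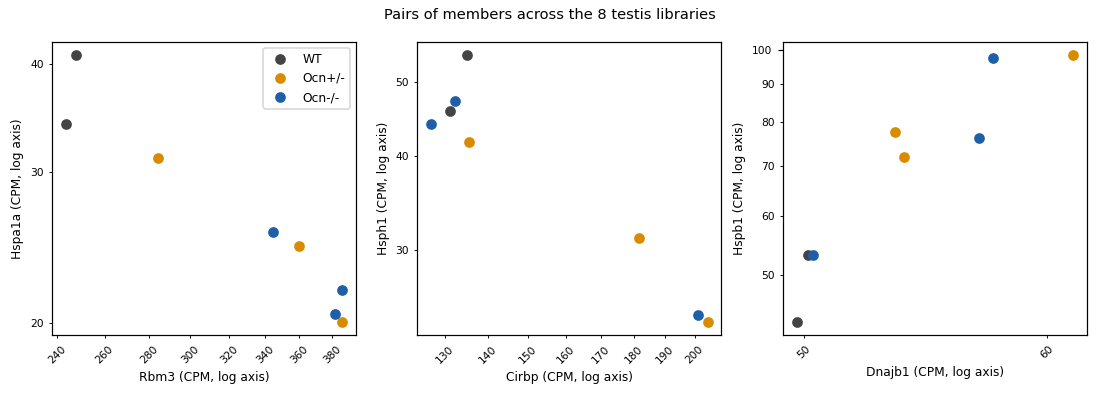
CPM of pairs of members across the 8 testis libraries, on logarithmic axes, colored by genotype. On the left Hspa1a is highest, at 40.9 and 34.1 CPM, in the WT testes where Rbm3 is lowest, in the middle 3 mutant testes with 182 to 205 CPM of Cirbp have at most 31.1 CPM of Hsph1, and on the right Hspb1 is highest where Dnajb1 is highest.

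In forebrain 1 member was called. *Rbm3* was higher in Ocn+/- pups and in the mutant mean, and the other 9 members were not called in any comparison with WT. In the mutant mean 8.68% of all genes were called, 3.29% higher and 5.39% lower, so that 1 of 10 is near the share of all genes. Of the genes called 37.9% were higher, and 64.6% with library size alone. The corresponding shares were 3.89% in Ocn+/- and 4.85% in Ocn-/- forebrain, where 1 and 0 members were called. At an unadjusted p under 0.05, 4 and 5 members passed, and DESeq2 called 2 in each. The shares above belong to edgeR's adjusted p, and none is given at these thresholds. These counts are thus not set against all genes. The median log2 change of the members in the mutant mean was -0.01, and that of all genes was 0.01. Marker genes moved too. The summed CPM of 5 forebrain markers, all detected, ran from 1069 to 1455 in WT and from 733 to 1004 in mutant forebrains, and that of 5 olfactory bulb markers from 33.5 to 39.3 in WT forebrains. In Ocn+/- forebrains the latter sum was 112 to 144 and in Ocn-/- forebrains 27.2 to 92.4. The sum of 5 neuronal markers ran from 9115 to 9693 in WT and from 8337 to 8995 in mutant forebrains, and that of 7 erythroid genes from 577 to 806 in WT, with 395 to 459 in Ocn+/- and 545 to 666 in Ocn-/- forebrains. The endothelial *Pecam1* (-0.57, edgeR adjusted p = 0.0173) and *Kdr* (-0.49, edgeR adjusted p = 0.00944) were lower in the mutant mean, while the sum of their list overlapped, at 138 to 165 in WT and 108 to 157 in the mutants. The part of these genes in the results on forebrain was not tested.

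**Figure D4:**
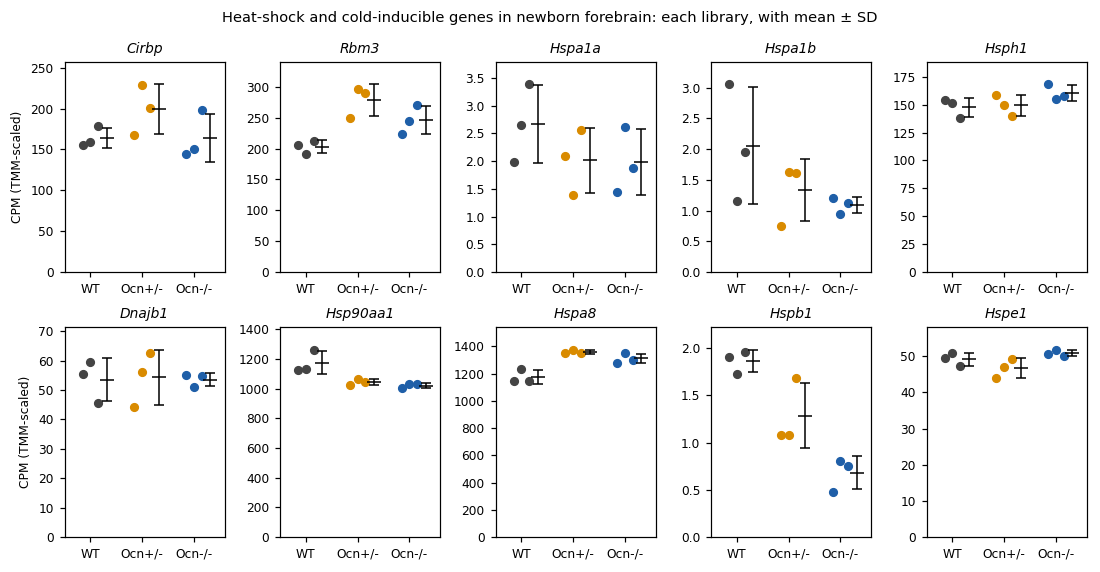
Level of each member in newborn forebrain, in CPM with TMM scaling on a linear axis from 0, with 3 libraries of each genotype and the mean ± SD beside them. The 6 mutant forebrains lie above the 3 WT forebrains for Rbm3 and Hspa8 and below them for Hsp90aa1 and Hspb1, and Hspa1a, Hspa1b and Hspb1 do not exceed 3.38 CPM.

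*Rbm3* had 206, 191 and 212 CPM in WT forebrains. It had 249, 296 and 289 CPM in Ocn+/- and 224, 244 and 270 CPM in Ocn-/- forebrains, all above WT. The means were 203 ± 10.9, 278 ± 25.5 and 246 ± 23.0 CPM (SD, n = 3 each). The log2 change was 0.46 in Ocn+/- (SE 0.09, edgeR adjusted p = 0.00575), 0.28 in Ocn-/- (SE 0.09, edgeR adjusted p = 0.0651) and 0.37 in the mutant mean (SE 0.08, edgeR adjusted p = 0.00613). The Ocn+/- call held in 18 of 18 alternatives and that of the mutant mean in 17 of 17, leaving out WT 3 included. In Ocn-/- forebrain 6 of 18 alternatives called it, leaving out the Ocn-/- forebrain 1 (0.34, edgeR adjusted p = 0.0497) or the Ocn+/- forebrain 1 (0.28, edgeR adjusted p = 0.0424) among them.

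*Cirbp* had 155, 159 and 178 CPM in WT, 168, 228 and 201 CPM in Ocn+/- and 144, 151 and 198 CPM in Ocn-/- forebrains, and the genotypes overlapped. It changed by 0.28 in Ocn+/- (SE 0.13, edgeR adjusted p = 0.238) and by 0.00 in Ocn-/- (SE 0.13, edgeR adjusted p = 0.998). With 1 library left out in turn, these ran from 0.17 to 0.39 and from -0.15 to 0.09. Over the 6 mutant forebrains *Cirbp* and *Rbm3* kept the same order, with a Spearman rho of 1 (exact permutation p = 0.00278, adjusted p = 0.25) and a Pearson r of 0.97 (exact permutation p = 0.00694, adjusted p = 0.125). Without the Ocn-/- forebrain 1 and the Ocn+/- forebrain 2, r was 0.93.

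The abundant chaperones were not called in edgeR's test, and their small changes had opposite signs. *Hspa8* had 1149, 1232 and 1144 CPM in WT, 1356, 1377 and 1352 CPM in Ocn+/- and 1282, 1352 and 1302 CPM in Ocn-/- forebrains. All mutants were above WT, and the mutant mean changed by 0.19 (SE 0.06, edgeR adjusted p = 0.0684). *Hsp90aa1* had 1123, 1135 and 1264 CPM in WT, 1026, 1067 and 1044 CPM in Ocn+/- and 1002, 1030 and 1032 CPM in Ocn-/- forebrains. All mutants were below WT, and the change was -0.18 (SE 0.06, edgeR adjusted p = 0.0739). DESeq2 called *Hspa8* (adjusted p = 0.0134) and *Hsp90aa1* (adjusted p = 0.0254) at nearly the same sizes of change, 0.18 and -0.19.

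The inducible HSP70 genes had few counts in forebrain. *Hspa1a* had 17.7 to 39.2 counts per library and *Hspa1b* 9.73 to 40.1, the highest in the WT forebrain 1. *Hspa1a* had 1.98, 2.65 and 3.38 CPM in WT and 1.39 to 2.61 CPM in the mutants, and changed by -0.37 in the mutant mean (SE 0.31, edgeR adjusted p = 0.49). This was -0.19 without WT 3 and -0.57 without WT 1. *Hspa1b* had 3.05, 1.15 and 1.96 CPM in WT and 0.744 to 1.63 CPM in the mutants, and changed by -0.81 (SE 0.37, edgeR adjusted p = 0.18). Without the WT forebrain 1 the latter was -0.33. Both genes overlapped between the genotypes.

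*Hspb1* had 25, 15 and 11 counts in WT, 15.7, 14.0 and 25 in Ocn+/- and 6, 11.7 and 10 in Ocn-/- forebrains. This made 1.91, 1.73 and 1.96 CPM in WT, 1.08, 1.08 and 1.68 CPM in Ocn+/- and 0.479, 0.804 and 0.753 CPM in Ocn-/- forebrains. All mutants were below WT, the Ocn+/- forebrain 3 nearest. The log2 change was -0.53 in Ocn+/- (SE 0.40, edgeR adjusted p = 0.481), -1.43 in Ocn-/- (SE 0.43, edgeR adjusted p = 0.0583) and -0.98 in the mutant mean (SE 0.35, edgeR adjusted p = 0.0884). *Hsph1*, *Dnajb1* and *Hspe1* stayed close to WT, with changes of 0.06 (SE 0.07), 0.00 (SE 0.11) and -0.01 (SE 0.08) in the mutant mean and edgeR adjusted p of 0.602, 0.992 and 0.933.

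All 6 mutant forebrains lay on the same side of the WT forebrains for 4 members, 2 higher and 2 lower, and 15.4% of all genes tested did so. Between Ocn-/- and Ocn+/- forebrain 0 members were called, where 1 gene in all was (0.00622%). At an unadjusted p under 0.05 there were 2 members there, a count with no share of all genes beside it, and DESeq2 called 0.

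Whether a member responded differently in the organs was tested in the joint fit, where 2.96% of all genes were called. *Hspb1* was the 1 member called. Its change against WT was lower in forebrain than in testes by -1.68 on the log2 scale (SE 0.38, edgeR adjusted p = 0.0185). The call was lost without the forebrain WT 1 (-1.64) or WT 3 (-1.66) or the testis WT 2 (-1.54), and the forebrain side rests on 6 to 25 counts per library. For *Rbm3* the changes in the organs differed by -0.16 (SE 0.14, edgeR adjusted p = 0.584), and for *Hspa1b* by -0.02 (SE 0.27, edgeR adjusted p = 1), a value that was 0.54 without the forebrain WT 1 and -0.31 without WT 2. *Hsph1* differed by 0.58 (SE 0.24, edgeR adjusted p = 0.197) and *Hspe1* by 0.47 (SE 0.18, edgeR adjusted p = 0.154).

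Related genes were described by lists, some of which share members, against medians over all genes of -0.00 in testes and 0.01 in forebrain. Their counts are set beside the shares of all genes, 4.51% higher and 5.43% lower in testes and 3.29% higher and 5.39% lower in forebrain. The lists were chosen with earlier results of these data known, so the counts are descriptions. The largest number of calls was among chaperones of the endoplasmic reticulum, which fold secreted and membrane proteins. In the mutant mean of testes 8 of 14 were lower and 0 higher, with a median log2 change of -0.46. *Hsp90b1*, the HSP90 of this compartment, had 1702 to 1732 CPM in WT and 712 to 1165 CPM in mutant testes and fell by 0.84 (SE 0.15, edgeR adjusted p = 0.00392). *Hspa5*, its HSP70 known as BiP, fell by 0.67 (SE 0.13, edgeR adjusted p = 0.00545) and *Calr*, the lectin chaperone calreticulin, by 0.55 (SE 0.11, edgeR adjusted p = 0.0067). In forebrain 4 of 14 were lower and 0 higher, with a median of -0.18. *Hspa5* fell by 0.38 (SE 0.07, edgeR adjusted p = 0.00182), *Calr* by 0.38 (SE 0.07, edgeR adjusted p = 0.00268) and *Hsp90b1* by 0.35 (SE 0.07, edgeR adjusted p = 0.00392). Without the forebrain WT 3 the count was 3 of 14, these same genes. Without the testis WT 1 it was 1 and without WT 2 it was 0 of 14, with medians of -0.41 and -0.50.

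**Figure D5:**
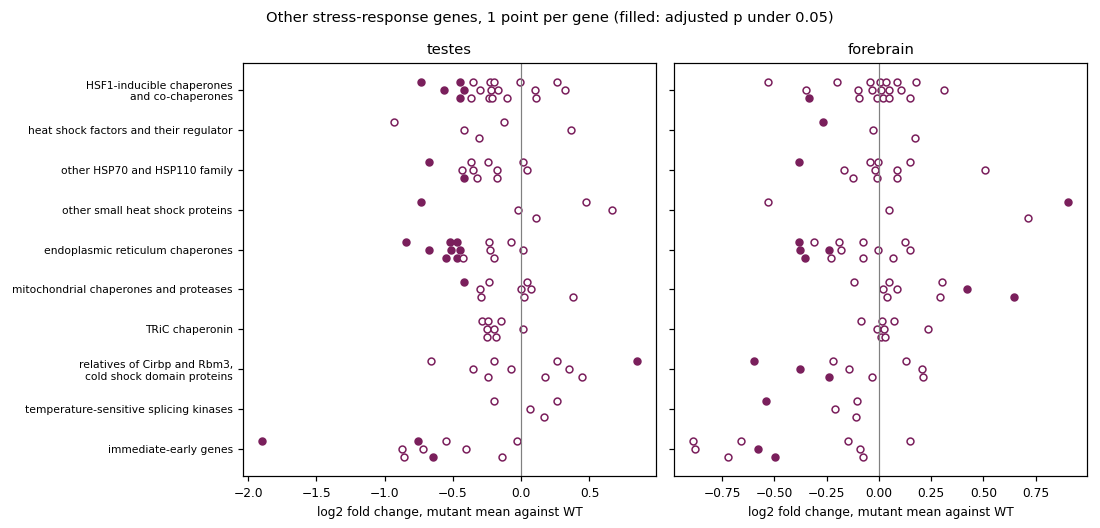
Log2 fold change of the mutant mean against WT for genes of 10 lists of other stress-response genes, in testes (left) and forebrain (right), on axes with different ranges. Each point is a gene, filled at an edgeR adjusted p under 0.05, and the vertical offsets within a list have no meaning. Of the endoplasmic reticulum chaperones 8 of 14 in testes and 4 of 14 in forebrain are filled, all left of 0.

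Of 20 other chaperones and co-chaperones that heat shock factor 1 can induce, 5 were lower and 0 higher in mutant testes, where 5.43% of all genes were lower, with a median of -0.23. Without either testis WT the count was 0 of 20. Among them were *Hspb8*, a small heat-shock protein (-0.74, SE 0.15, edgeR adjusted p = 0.00834), and *St13*, a co-chaperone of HSP70 (-0.45, SE 0.11, edgeR adjusted p = 0.019). In forebrain 1 of 20 was lower, and the median was 0.01. Of the heat shock factors and their regulator 0 of 5 were called in testes and 1 of 3 in forebrain, *Hsf2* (-0.26, SE 0.08, edgeR adjusted p = 0.0484), which was not called without WT 3. The medians were -0.31 and -0.03, the former 0.00 without the testis WT 1 and -0.24 without WT 2. Of the 8 subunits of the TRiC chaperonin 0 were called in either organ, with medians of -0.22 and 0.02.

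Among other HSP70 and HSP110 genes 2 of 11 were lower in testes (*Hspa5* and the mitochondrial *Hspa9*, -0.42, SE 0.11, edgeR adjusted p = 0.0305) and 1 of 11 in forebrain (*Hspa5*), with medians of -0.32 and -0.01. Of other small heat-shock proteins 1 of 5 was lower in testes (*Hspb8*), and 1 of 4 was higher in forebrain, *Hspb6* (0.91, SE 0.22, edgeR adjusted p = 0.0153). The medians were 0.11 and 0.38, the former -0.04 without the testis WT 1 and 0.21 without WT 2, and 0.29 in Ocn+/- and -0.07 in Ocn-/- testes. Of 9 mitochondrial chaperones and proteases 1 was lower in testes, *Hspa9*. In forebrain 2 of 9 were higher, *Dnaja3*, a mitochondrial HSP40 (0.64, SE 0.16, edgeR adjusted p = 0.0209), and *Clpx*, the unfoldase of the ClpXP protease (0.42, SE 0.11, edgeR adjusted p = 0.0261). The medians were -0.00 and 0.09, the former -0.09 without the testis WT 1 and 0.04 without WT 2. In the mutant mean none of *Hspb6*, *Dnaja3* and *Clpx* was called without the forebrain WT 3. In Ocn-/- forebrain 1 of 4 other small heat-shock proteins was called higher with and without that library. The calls of these 3 lists in testes rest on 2 WT pups.

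The relatives of *Cirbp* and *Rbm3* and the cold shock domain proteins are RNA-binding proteins as well. In testes 1 of 10 was higher, *Lin28a*, which binds let-7 precursors (0.85, SE 0.21, edgeR adjusted p = 0.0182), which was lost without either testis WT, and the median was 0.05, or 0.03 without WT 1 and 0.09 without WT 2. In forebrain 3 of 9 were lower, with a median of -0.14, among them *Lin28b* (-0.60, SE 0.16, edgeR adjusted p = 0.0264) and *Carhsp1* (-0.38, SE 0.07, edgeR adjusted p = 0.00417). Without WT 3 it was 1 of 9, *Carhsp1*. Of the temperature-sensitive splicing kinases 0 of 4 were called in testes and 1 of 4 in forebrain, *Clk4*, which fell from 47.3 to 49.3 CPM in WT to 31.8 to 36.3 CPM in the mutants (-0.54, SE 0.09, edgeR adjusted p = 0.000834). The medians were 0.11 and -0.16, the former 0.03 without the testis WT 1 and 0.21 without WT 2.

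Immediate-early genes, which respond within minutes to many stimuli, were lower where they were called. In testes 3 of 10 were lower and 0 higher, with a median of -0.68. *Junb* had 12.6 to 19.9 CPM in WT and 2.65 to 7.04 CPM in mutant testes (-1.90, SE 0.25, edgeR adjusted p = 0.000297), and *Btg2* (-0.76, SE 0.14, edgeR adjusted p = 0.00454) and *Dusp1* (-0.65, SE 0.19, edgeR adjusted p = 0.0449) followed. In forebrain *Jun* (-0.58, SE 0.10, edgeR adjusted p = 0.00125) and *Dusp1* (-0.50, SE 0.13, edgeR adjusted p = 0.0198) were lower, 2 of 10, and the median was -0.54. By genotype, Ocn+/- testes had a median of -0.22 and Ocn-/- testes one of -0.86. Genes of the list can spread widely among testes. The widest ran from 0.119 to 76.6 CPM over the mutant testes, against 7.51 to 9.21 CPM in WT. In Ocn+/- forebrain it was 0.00, with 5 of 10 genes on either side of 0, and in Ocn-/- forebrain -0.57, with 10 of 10 below 0. Between Ocn-/- and Ocn+/- 0 of 10 were called in edgeR's test in either organ. In the mutant mean of forebrain 1 of 10, *Jun*, was called without WT 3. With the testis WT 1 left out 1 of 10 was called in testes, with a median of -0.78, and with WT 2 left out 0 were, with a median of -0.43.

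To name the genes whose pattern was most like that of *Cirbp* and of *Hsph1*, log2 CPM was correlated over the libraries of an organ among genes with a mean of at least 10 CPM. For *Cirbp*, Pearson r was highest for *Cox8a* (0.96), *Tspan4* (0.94) and *Ak6* (0.93) over 8 testes among 10897 genes, and for *Slc6a6* (0.96), *Meaf6* (0.93) and *Cyrib* (0.93) over 9 forebrains among 10217 genes. For *Hsph1* it was highest for *Msantd4* (0.98), *Zfp612* (0.98) and *Vwa5a* (0.96) in testes, and for *Phf20* (0.92), *Airim* (0.92) and *Zfp41* (0.92) in forebrain. By Spearman's rho *Slc6a6* led again for *Cirbp* in forebrain (0.98), and the other names changed. These are descriptions over libraries that share genotypes, and the highest of so many values is high by selection.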

How the data were processed

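Poly-A RNA of 8 testes and 9 forebrains was sequenced by the authors at postnatal day 1. Per the submitters' processing notes, reads were trimmed with Trim Galore 0.6.6, aligned to GRCm39 with STAR 2.7.8a and counted with RSEM 1.3.3. The deposited values are the authors' expected counts, not normalized, for 55359 genes, with values that were not whole for 9625 of them. Of the identifiers 54749 were found in GENCODE vM39, 31367 in the same version, and the release used by the authors is not given in the sources used here.

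Expected counts were rounded and tested with edgeR 4.0.16 in R 4.3.3 (limma 3.58.1). Each organ was fitted with all 3 genotypes, TMM normalization, filterByExpr and robust quasi-likelihood tests without covariates, over 16361 genes in testes and 16076 in forebrain. The joint fit held 17800 genes. Tests were two-sided, with Benjamini-Hochberg adjustment over all genes tested. Log2 CPM had a prior count of 2. Alternatives were DESeq2 1.42.0, scaling by upper quartile or by library size alone, no filter, at least 10 counts in every library, the likelihood ratio test, only the genotypes compared, a replicate block, *Hspa1a* and *Hspa1b* summed, and each library left out. Canonical lengths, list counts without the forebrain WT 3 or a testis WT, and correlations over mutant libraries were added after seeing the data. The fits were tested on simulated data.

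Named were the 10 members in every contrast, the genes most like *Cirbp* and *Hsph1*, and per list and organ at most 3 called genes, those with the largest change in the mutant mean against WT; some genes and 1 promoter are not reported here. Members and lists were chosen with earlier results of these data known. Libraries held 6518151 to 14621584 counts. With 2 or 3 pups a genotype, biological coefficients of variation of 0.153 in testes and 0.115 in forebrain set the precision.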

Additional observations from a re-analysis of the deposited data

Results flagged for a closer look

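The changes of *Hspb1* against WT had opposite signs in the organs. All 6 mutant testes lay above both WT testes, the Ocn-/- testis 2 only just, and all 6 mutant forebrains below the 3 WT forebrains. Of all genes tested, 26% in testes and 15.4% in forebrain had all mutants on the same side of WT. The difference between the organs' changes, -1.68 on the log2 scale, passed the threshold (edgeR adjusted p = 0.0185). That call was lost without the forebrain WT 1 or WT 3, and the difference was -1.54 without the testis WT 2. *Hspb1* was not called within either organ, its forebrain level was 6 to 25 counts per library, and 59.5% of its 50-base stretches also occur in other genes, most of them in *Hsp25-ps1*. Groups of 2 or 3 libraries were too small for a test of outlying samples.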

How the results depend on the processing

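Over the alternatives run, no called member changed direction. Counts of called members moved as follows. The share of all genes called under each alternative is not given beside them, so they are not read as results about the members. With DESeq2, 3 members were called in forebrain in the mutant mean against WT, 2 in Ocn-/- and 2 in Ocn+/-. With library size alone these were 2 in the mutant mean and 1 in Ocn-/-. With the likelihood ratio test 1 was called in Ocn-/- forebrain. With no filter on low counts, 7 were called in the mutant mean of testes, 5 in Ocn-/- testes, 7 in Ocn+/- testes, 1 in Ocn-/- forebrain, 2 in Ocn+/- forebrain and 2 for the difference between organs, where at least 10 counts in every library left 0, since *Hspb1* was then not tested. With each library left out in turn, the count ran from 0 to 5 in the mutant mean of testes and in Ocn+/- testes, from 0 to 4 in Ocn-/- testes, from 0 to 1 in Ocn-/- forebrain and from 0 to 1 for the difference between organs. With the replicate number as a block, 1 member (*Rbm3*) was called in Ocn-/- forebrain, *Hspb1* was called in the mutant mean of testes (0.53) and in Ocn+/- testes (0.61), and the calls of *Hsp90aa1* in both (-0.36 and -0.46), of *Rbm3* in Ocn+/- testes (0.44) and of *Dnajb1* between organs (0.28) were lost. Deviations from the genotype mean had correlations of -0.09 to 0.09 in testes and -0.04 to 0.15 in forebrain between libraries with the same number. Between libraries with different numbers they were -0.12 to 0.12 in testes and -0.20 to 0.11 in forebrain. The deviations of both WT testes mirror each other by construction, and the forebrain pairs are few. Whether the numbers pair the pups is thus not settled.

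The cause of these moves was not tested. Library size alone raised the share of higher genes among those called in the mutant mean, to 65.5% from 45.4% (testes) and to 64.6% from 37.9% (forebrain). *Hspa1a*, *Hspa1b* and *Hspb1* had at most 40.1 counts per forebrain library, and no call on members in testes held without either WT pup.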
